A study of Mus musculus with 27 samples.

Results

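Excitation-contraction coupling is the step that turns an action potential of the muscle cell membrane into calcium release from the sarcoplasmic reticulum. The 10 genes examined here encode its core machinery in skeletal muscle: Ryr1, Cacna1s, Cacnb1, Cacng1, Atp2a1, Atp2a2, Casq1, Casq2, Trdn and Jph2. They were taken by symbol, and all 10 were found among the 24825 gene rows measured. RNA levels were compared in C2C12 cells, a mouse myoblast line. These carried a control retrovirus, one for full-length NFIA, or one for the Δpro#3 mutant, which lacks the pro#3 domain, the C-terminal end of NFIA. NFIA is a transcription factor of the nuclear factor I family, and both proteins carried a 3xFLAG tag. Cells were collected at day 0, at day 7 of an adipogenic protocol, and at day 7 after 10 µM forskolin for 4 h, with 3 samples in each of the 9 groups and 27 samples in all. Control cells went through the same protocol as the others: medium with 10% serum throughout and, from confluence, a cocktail of isobutylmethylxanthine, indomethacin, dexamethasone, insulin, T3 and rosiglitazone for 48 h, followed by insulin, T3 and rosiglitazone alone. The labels describe no low-serum myogenic medium, expression came from a viral vector rather than the endogenous gene, and forskolin, an activator of adenylyl cyclase, was applied only at day 7.

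In a muscle fiber, the voltage sensor in the transverse tubule is an L-type calcium channel. Its pore subunit is Cacna1s, its cytoplasmic beta subunit Cacnb1 and its gamma subunit Cacng1, and it opens the release channel Ryr1 across a narrow cleft that junctophilins such as Jph2 span. Inside the reticulum, triadin (Trdn) links Ryr1 to the calcium buffers calsequestrin 1 (Casq1, the fast fiber form) and calsequestrin 2 (Casq2, the cardiac and slow fiber form), and the pumps SERCA1 (Atp2a1, fast fiber) and SERCA2 (Atp2a2, whose variants serve heart, slow fibers and nearly all other cells) take the calcium back up.

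Levels are the authors' FPKM, fragments per kilobase of transcript, scaled to the total of each library. Totals ran from 9567769 to 27230965 fragments per sample, with a median of 17707223. The FPKM of Nfia was 225 to 250.2 in NFIA and 397 to 423 in Δpro#3 cells at day 0, 457 to 528 and 374 to 480.5 at day 7, and 497 to 594 and 262 to 344 with forskolin, so the constructs did not overlap at day 0 and with forskolin, and their level cannot be told apart from the construct. It lay between 0.0885 and 0.879 in 8 of 9 control samples and reached 7.35 in control day 0 replicate 2, without which the counts of coupling genes called at day 0 were the same. Myoblast and myotube markers (8 genes, among them Myod1, Des and Acta1) summed to 1066 to 1089 FPKM in control cells at day 0 and to 134 to 143 in NFIA cells. At day 7, adipocyte markers (6 genes, among them Fabp4 and Adipoq) summed to 318 to 354 in control, 12580 to 14048 in NFIA and 578 to 1893 in Δpro#3 cells. The highest Δpro#3 value, replicate 1, stood apart, as the other 2 were at 578 and 685, and the day 7 construct counts are also given without it. Of 3 cardiac markers, Nppa and Myl7 were listed at 0 in control cells at every time, and Myh6 ranged from 9.86 to 12.6 FPKM in them at day 7. In such bulk samples, fewer muscle-like cells and less RNA per cell cannot be told apart.

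The 10 genes are scattered over the genome. In the annotation of the files' build (NCBIM37, mm9), all are protein-coding. Ryr1 is at chr7:29788359-29910170 on the minus strand, Atp2a1 at chr7:133589372-133606622 on the minus strand, Cacna1s at chr1:137949327-138016399 on the plus strand and Casq1 at chr1:174140025-174150026 on the minus strand. Cacnb1 is at chr11:97862822-97884348 and Cacng1 at chr11:107564532-107577836, both on the minus strand. Atp2a2 is at chr5:122903531-122952183 on the minus strand, Casq2 at chr3:101890338-101950437 on the plus strand, Trdn at chr10:32803289-33196515 on the plus strand and Jph2 at chr2:163161978-163223729 on the minus strand.

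Promoter letters are described for the genes with a window at hand, and their relation to the RNA levels was not tested. The letters CAGCTG are one form of the E-box, CANNTG, the motif that MyoD and myogenin bind. RefSeq windows from 250 bases before to 50 bases after the start (GRCm38.p6) were at hand for 7 of the 10 genes, namely Ryr1, Cacna1s, Cacnb1, Atp2a1, Casq1, Casq2 and Jph2. Both strands were searched. These genes have 9 windows in all, and a gene was counted when any of its windows held the letters, whereas the shares given beside the counts are of single windows. CAGCTG was in a window of 4 of these 7 genes, beside 16.3% of 32851 windows of the same length. CANNTG, which includes CAGCTG, was in a window of 6 of 7, beside 72.3%. The NFI half-site letters TTGGC were in 5 of 7, beside 46.7%, and the exact letters TATTTAT in 0 of 7, beside 5.6%. These are matches of letters, and no binding was measured. The stretches upstream of the start that hold CAGCTG in Cacna1s, Atp2a1, Casq1 and Jph2, and the nearest E-box upstream in Casq2, are given 5′ to 3′ on the gene's strand with the E-box in capitals:
Cacna1s, chr1:137949238-137949297, 123 bases upstream: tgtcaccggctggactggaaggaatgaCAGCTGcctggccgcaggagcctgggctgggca
Atp2a1, chr7:133606610-133606669, 55 bases upstream: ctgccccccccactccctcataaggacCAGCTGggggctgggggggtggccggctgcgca
Casq1, chr1:174150189-174150248, 195 bases upstream: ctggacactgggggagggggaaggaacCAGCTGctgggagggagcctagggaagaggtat
Jph2, chr2:163223730-163223765, 9 bases upstream: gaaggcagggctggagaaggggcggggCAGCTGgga
Casq2, chr3:101890259-101890318, 52 bases upstream: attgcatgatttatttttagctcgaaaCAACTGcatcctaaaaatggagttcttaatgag
Coordinates are those of the exact match of each stretch in NCBIM37, and distances run from the RefSeq start to the first base of the E-box.

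**Figure D1:**
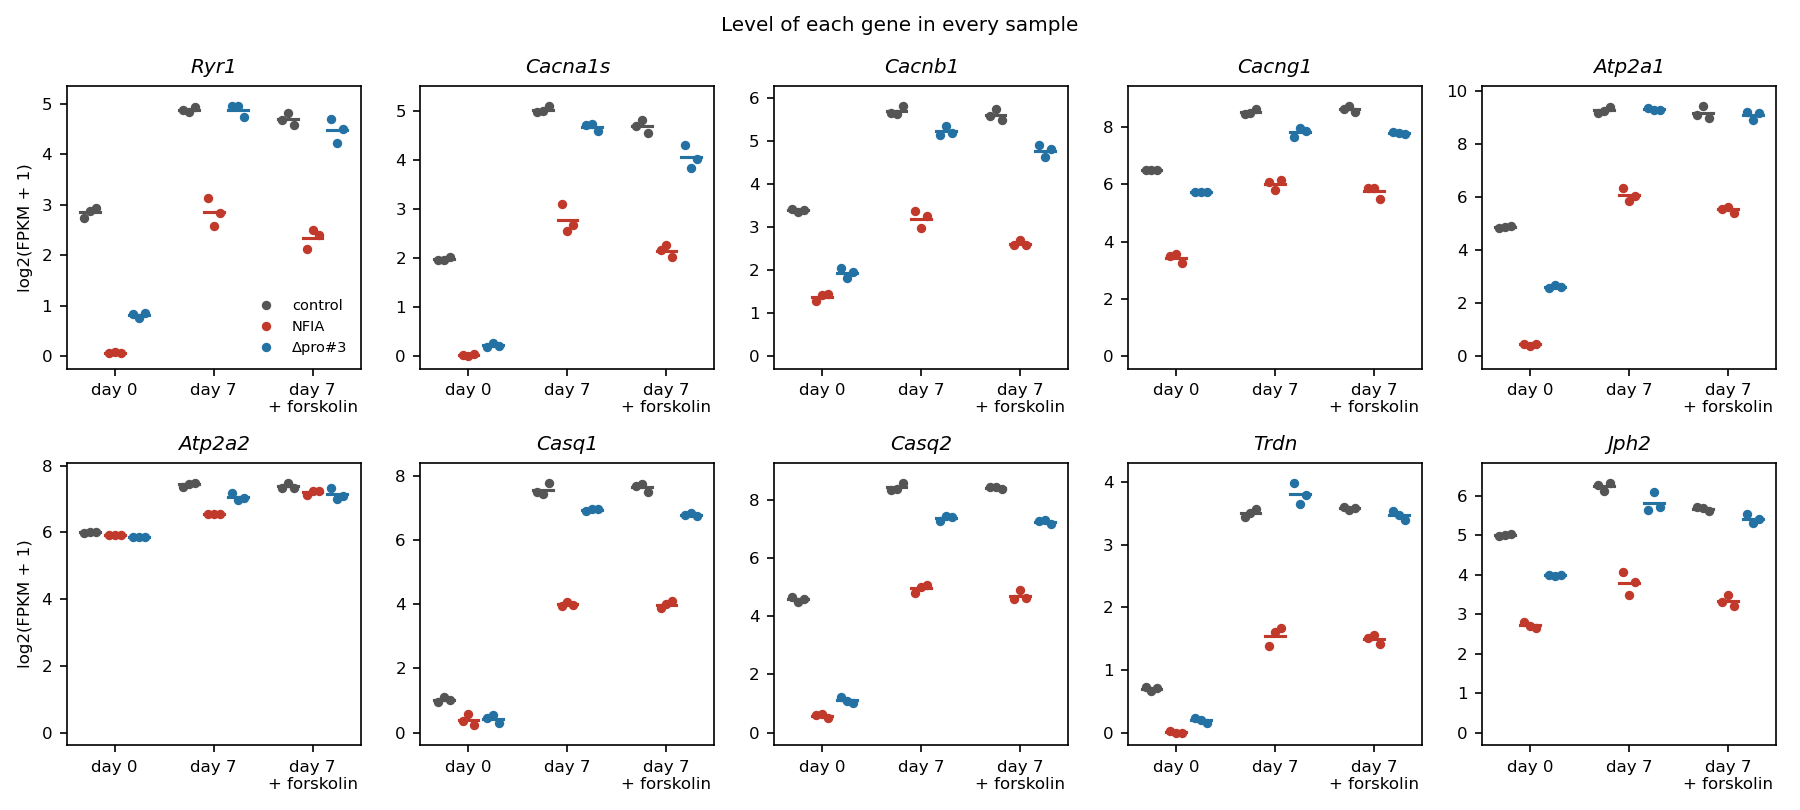
Level of each of the 10 genes, as log2(FPKM + 1), in every sample (points) with the group mean (line), for control, NFIA and Δpro#3 cells at day 0, day 7 and day 7 with forskolin (x axis; each panel has its own y axis). NFIA samples sit below the control samples at every time for all 10 genes, Δpro#3 samples of Ryr1 and Atp2a1 are below control at day 0 and overlap it at day 7, those of Casq2 are below it at both, and Atp2a2 shows the smallest spread between constructs at day 0.

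The first question was whether the machinery was already reduced before differentiation. At day 0, NFIA cells had less RNA of all the coupling genes than control cells. Levels were between 0.531% and 31.2% of control for 9 genes, and 94.5% for Atp2a2. Of the 9 genes that passed the filter on low levels (a mean FPKM of 0.5 over the samples fitted), 7 were lower by more than 3-fold with adjusted p under 0.05, whereas 2.78% of all 12105 genes tested were (336 genes). The median log2 difference over those 9 was -2.28, beside 0.01 over all genes tested. Among them, Cacna1s and Casq1 passed the filter only through control cells, with means of 2.95 and 1.03 FPKM there. Both were under 0.5 with either construct, so the filter itself favored a level below control for these genes. Log2 differences and the 3-fold limit, here and below, are of FPKM + 1 from limma, which understates the change of genes near 0, so a gene within 3-fold on that scale can be beyond it in plain FPKM, of which percentages are given too. Comparisons of NFIA and of Δpro#3 with control share the control samples.

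For the release channel Ryr1, control cells at day 0 had 5.68, 6.37 and 6.67 FPKM in replicates 1 to 3. NFIA cells had 0.0406, 0.0516 and 0.0460, and Δpro#3 cells 0.781, 0.686 and 0.814. The 3 groups did not overlap, and Ryr1 was at 0.738% of control in NFIA cells and 12.2% in Δpro#3 cells. The log2 differences from control were -2.79 (SE 0.06, adjusted p = 2.85e-11) and -2.04 (SE 0.06, adjusted p = 8.09e-10).

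The voltage sensor subunits did not fall to the same depth. Cacna1s, the pore and voltage-sensing subunit, had 2.88, 2.91 and 3.05 FPKM in control cells, 0.0187, 0 and 0.0282 in NFIA cells and 0.139, 0.201 and 0.148 in Δpro#3 cells. The NFIA values rest on 5 fragments over 3 libraries, against 1422 in control. Relative to library totals that was 229.5-fold fewer, with an exact 95% interval of 98.1 to 708 that covers counting error only. Cacnb1 ranged from 9.10 to 9.64 in control, 1.43 to 1.72 in NFIA and 2.49 to 3.11 in Δpro#3 cells, which is 17.1% and 30.0% of control, and the Δpro#3 difference of -1.45 (SE 0.07) on log2(FPKM + 1) was within 3-fold although plain FPKM was 3.33-fold lower. Cacng1, the gamma subunit, was the subunit that Δpro#3 reduced least: it ranged from 88.6 to 90.4 in control, 8.44 to 10.9 in NFIA and 51.7 to 52.7 in Δpro#3 cells, which is 11.1% and 58.3% of control. Cacng1 was also the most abundant of the 3 subunits per length, and its mean FPKM was 30.4 times that of Cacna1s in control cells at day 0 and 11.6 times at day 7.

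The reticulum pumps split at day 0. Atp2a1, the fast fiber pump, had 27.3, 28.3 and 29.1 FPKM in control cells, 0.374, 0.311 and 0.385 in NFIA cells and 4.99, 5.34 and 5.12 in Δpro#3 cells. It was at 1.26% of control with NFIA and 18.2% with Δpro#3, with log2 differences of -4.43 (SE 0.04, adjusted p = 1.19e-13) and -2.25 (SE 0.04, adjusted p = 4.16e-11). Atp2a2, the pump that most cell types have, stayed within 10% of control: it had 62.1, 63.9 and 64.0 in control, 59.9, 59.7 and 59.9 in NFIA and 56.8, 57.3 and 57.0 in Δpro#3 cells. These narrow groups did not overlap either, and the log2 differences of -0.08 (SE 0.02, adjusted p = 0.0115) and -0.15 (SE 0.02, adjusted p = 0.000344) were far smaller than those of Atp2a1.

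Both luminal buffers were lower than control at day 0 with either construct. Casq2 had 24.3, 21.1 and 22.9 FPKM in control cells, 0.502, 0.541 and 0.413 in NFIA cells and 1.34, 1.11 and 1.01 in Δpro#3 cells, which is 2.13% and 5.06% of control. Casq1 was low in all: 0.922, 1.16 and 1.02 in control, 0.271, 0.508 and 0.188 in NFIA and 0.365, 0.456 and 0.226 in Δpro#3 cells. Casq1 was thus at 31.2% of control with NFIA and 33.8% with Δpro#3. The log2 differences from control were -0.63 (SE 0.10, adjusted p = 0.000198) and -0.59 (SE 0.10, adjusted p = 0.000435). Its control and construct groups did not overlap, but NFIA and Δpro#3 did, and the difference between them was 0.03 on the log2 scale (95% interval -0.19 to 0.26, adjusted p = 0.791). Trdn failed the filter at day 0 and was not tested there. It had 0.663, 0.578 and 0.637 in control cells, 0.0173, 0 and 0 in NFIA cells and 0.172, 0.153 and 0.111 in Δpro#3 cells. Only 2 Trdn fragments were counted over the NFIA libraries, against 217 in control, 87.6-fold fewer relative to library totals with an exact 95% interval of 24.0 to 728. Jph2, the junctophilin, ranged from 30.5 to 31.6 in control, 5.33 to 5.96 in NFIA and 14.6 to 15.1 in Δpro#3 cells, with log2 differences from control of -2.28 (SE 0.04) and -1.01 (SE 0.04).

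With Δpro#3 at day 0, all 9 genes tested were lower than control at adjusted p under 0.05, as were 29.7% of all genes, and 4 of them (Ryr1, Cacna1s, Atp2a1 and Casq2) by more than 3-fold, as were 1.32%. Cacna1s and Casq1 entered these counts only through their control level. Against NFIA cells, 2 of 9 genes, Cacng1 and Atp2a1, were over 3-fold higher in Δpro#3 cells on FPKM + 1, with 0.925% of all genes called, and their log2 differences were 2.29 (SE 0.07) and 2.18 (SE 0.04). In the voom fit on fragments the count was 4, with Ryr1 and Cacna1s added, and the share of all genes in that fit was not worked out. In plain FPKM these were 16.5 and 10.4 times as high in Δpro#3 as in NFIA cells. The Cacna1s value rests on 74 fragments in Δpro#3 and 5 in NFIA cells. Relative to library totals, those of NFIA cells were 0.0787 of those of Δpro#3 cells, with an exact 95% interval of 0.0248 to 0.192. At adjusted p under 0.05 alone, 7 of 9 were higher in Δpro#3 than in NFIA cells and 1 lower, Atp2a2, where 33.4% and 31.9% of all genes were. The Atp2a2 call (log2 difference -0.07, SE 0.02, adjusted p = 0.0306) was lost without any 1 of 5 libraries, NFIA replicates 1 and 2 and Δpro#3 replicates 1, 2 and 3, with adjusted p from 0.0592 to 0.0833, and with moderation without a trend (0.0606). Myoblast and myotube markers moved with these genes at day 0: 7 of 8 were lower by more than 3-fold in NFIA and 5 of 8 in Δpro#3 cells, with summed FPKM of 391 to 399 in the latter. Cycling-cell markers (Mki67, Top2a and Ccnb1) summed to 73.7 to 76.9 in control, 209 to 215 in NFIA and 90.3 to 96.6 in Δpro#3 cells. By more than 3-fold, 1 of 3 was higher with NFIA and 0 of 3 with Δpro#3. Adipocyte markers summed to 31.8 to 39.0 in control, 378 to 409 in NFIA and 293 to 312 in Δpro#3 cells at day 0. Only 2 of these 6 markers passed the filter then, and both were over 3-fold higher with either construct. The part of these markers in the results was not tested.

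**Figure D2:**
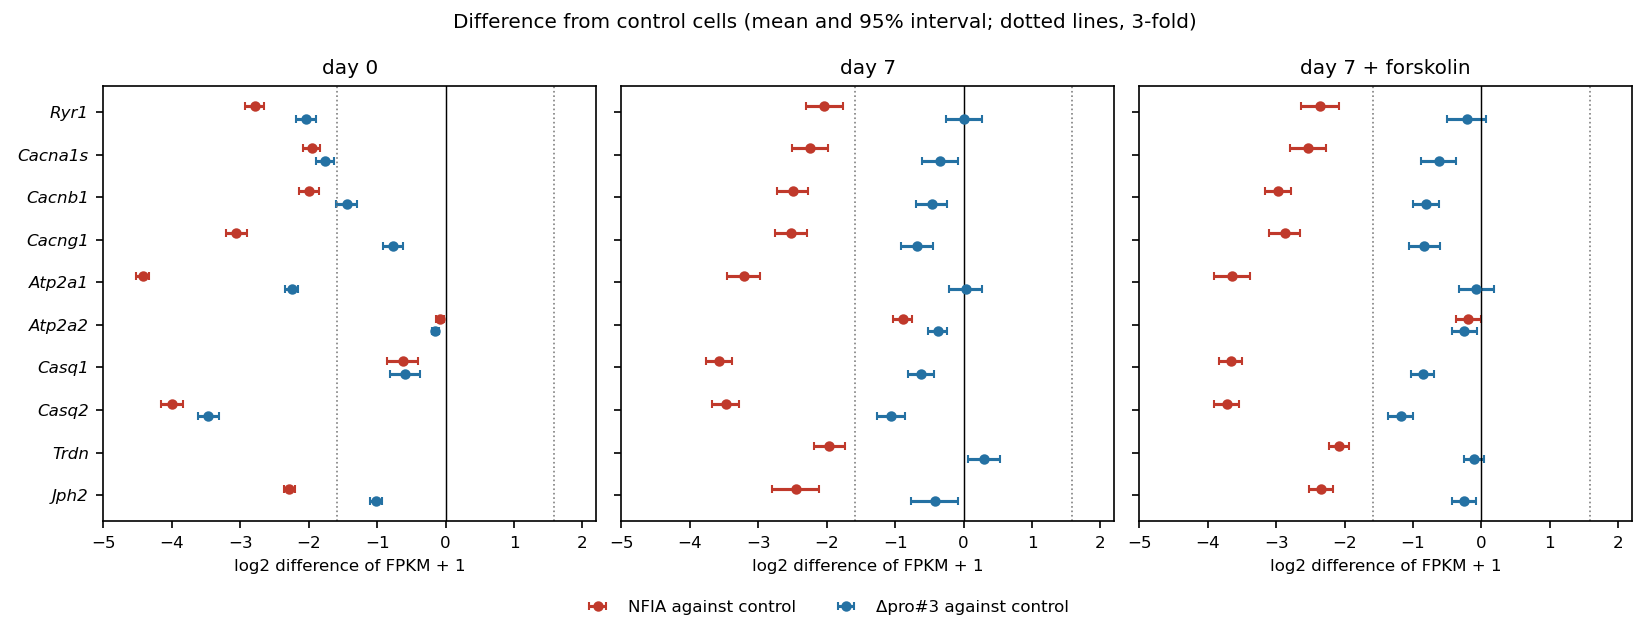
Log2 difference of FPKM + 1 from control (x axis, points with 95% intervals) for each gene (y axis) in NFIA and Δpro#3 cells at day 0, day 7 and day 7 with forskolin; dotted lines mark 3-fold. NFIA points of 9 genes lie beyond 3-fold at day 7, Δpro#3 points of Ryr1, Cacna1s, Atp2a1 and Casq2 lie beyond 3-fold at day 0 and within it at day 7, and Trdn was not tested at day 0.

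Over the 7 days the machinery rose in every construct. All 10 genes were higher at day 7 than at day 0 at adjusted p under 0.05 in control, NFIA and Δpro#3 cells, where 36%, 33.2% and 32.8% of all 12408 genes tested were. By more than 3-fold, 8 of 10 rose in control cells (3.65% of all genes), 7 in NFIA cells (5.38%) and 9 in Δpro#3 cells (3.91%). In control cells Atp2a2 and Jph2 rose by less than 3-fold, in NFIA cells Atp2a2, Trdn and Jph2, and in Δpro#3 cells Atp2a2, all on FPKM + 1. For Trdn in NFIA cells that scale gave a log2 difference of 1.54, although plain FPKM went from a mean of 0.00576 to 1.94. Relative to library totals its day 0 fragments were 0.0036 of those at day 7, with an exact 95% interval of 0.000434 to 0.0131. The largest rise in control cells was that of Casq1, from 1.03 ± 0.12 to 191 ± 27.1 FPKM (mean ± SD, n = 3), with a log2 difference of 6.55 (SE 0.10, adjusted p = 3.63e-18), with Atp2a1 at 4.40 (SE 0.09) and Casq2 at 3.86 (SE 0.08). In plain FPKM these were 185-fold, 21.9-fold and 15.1-fold, and Trdn rose 16.7-fold. In Δpro#3 cells Atp2a1 rose by 6.68 (SE 0.09), Casq1 by 6.52 (SE 0.10) and Casq2 by 6.26 (SE 0.08). In NFIA cells Atp2a1 rose by 5.62 (SE 0.09) from a mean of 0.357 to one of 66.4 FPKM, 10.8% of the control level at day 7. Markers of several kinds moved over the same days by more than 3-fold. All 3 cycling markers fell in each construct, from a sum of 73.7 to 76.9 FPKM to one of 8.85 to 11.1 in control cells. Myoblast and myotube markers rose (5, 5 and 6 of 8 in control, NFIA and Δpro#3 cells), as did adipocyte markers (4, 5 and 4 of 6), and their part in the rise of the coupling genes was not tested.

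At day 7 NFIA cells still had less of every coupling gene than control cells. In Δpro#3 cells Ryr1 and Atp2a1 overlapped control, 7 genes were lower than control by less than 3-fold, and Trdn was higher. With NFIA, 9 of 10 genes were lower than control by more than 3-fold, where 3.3% of all 12324 genes tested were, and stood at 7.84% to 22.1% of control. Atp2a2 was at 53.8%. The median log2 difference over the 10 was -2.48, beside -0.08 over all genes. With Δpro#3, 0 of 10 passed 3-fold in either direction (0.503% of all genes lower, 0.933% higher). At adjusted p under 0.05 alone 7 of 10 were lower (27.5% of all genes) and 1 higher (21.3%). The same 7 and 1 had an unadjusted p under 0.05, and a voom fit on fragment counts also called 0 of 10 over 3-fold. The range over the 10 was 47.7% to 126% of control. Directly against NFIA cells, Δpro#3 cells had more than 3-fold higher levels of 9 of 10 genes (2.6% of all genes), all but Atp2a2. Without Δpro#3 replicate 1, the library with the highest adipocyte markers, these counts over 3-fold were again 0 and 9. At adjusted p under 0.05 alone, however, 5 genes were then lower than control and 0 higher, with the calls of Cacna1s (adjusted p = 0.0595), Jph2 (0.141) and Trdn (0.112) lost. The counts of the differences in rise below were the same without it.

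Ryr1 at day 7 had 28.4, 27.7 and 29.5 FPKM in control cells, 7.76, 5.01 and 6.11 in NFIA cells and 30.1, 30.1 and 25.8 in Δpro#3 cells. Control and Δpro#3 samples overlapped, and their log2 difference was 0.00 (95% interval -0.26 to 0.27, adjusted p = 0.983). Atp2a1 was alike in this: 574, 611 and 668 in control, 79.0, 56.2 and 64.2 in NFIA and 654, 621 and 619.6 in Δpro#3 cells. Its Δpro#3 difference from control was 0.03 (95% interval -0.21 to 0.28, adjusted p = 0.817), and its NFIA difference -3.21 (SE 0.11, adjusted p = 2.5e-09).

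Casq2 was the member furthest below control with Δpro#3 at day 7. Casq2 had 323, 326 and 383 FPKM in control, 26.6, 31.3 and 32.2 in NFIA and 152, 173 and 167 in Δpro#3 cells, 8.73% and 47.7% of control, with no overlap between the 3 groups. Casq1 had 179, 172 and 222 in control, 14.5, 15.8 and 14.7 in NFIA and 120.6, 124 and 124 in Δpro#3 cells, 7.84% and 64.2% of control. The Δpro#3 differences were -1.06 (SE 0.09, adjusted p = 1.26e-05) for Casq2 and -0.63 (SE 0.09, adjusted p = 0.000246) for Casq1. Both NFIA differences, -3.48 for Casq2 and -3.58 for Casq1, were the largest of the 10 genes at this time.

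The voltage sensor subunits were lower than control with both constructs. Cacna1s had 30.4, 31.0 and 33.4 FPKM in control, 7.60, 4.89 and 5.41 in NFIA and 25.4, 25.6 and 23.2 in Δpro#3 cells. Cacnb1 ranged from 48.3 to 54.9, from 6.83 to 9.23 and from 34.0 to 39.8 in that order. Cacng1 ranged from 347 to 396, from 54.4 to 69.7 and from 202 to 252. None of these ranges overlapped, and in Δpro#3 cells Cacna1s was at 78.2%, Cacnb1 at 71.8% and Cacng1 at 62.4% of control, with adjusted p of 0.0372, 0.00369 and 0.000509. Jph2 ranged from 68.5 to 80.1 in control, 10.2 to 15.9 in NFIA and 48.9 to 68.1 in Δpro#3 cells. Trdn was the member that Δpro#3 raised: 9.90, 10.5 and 10.9 in control, 1.60, 2.05 and 2.17 in NFIA and 15.0, 11.5 and 12.9 in Δpro#3 cells, a log2 difference of 0.30 (SE 0.10, adjusted p = 0.034). Of these Δpro#3 calls, 3 at day 7 were near the threshold. That of Cacna1s was lost without any 1 of the 6 control and Δpro#3 libraries (adjusted p from 0.0595 to 0.11) and that of Jph2 (adjusted p = 0.0457) without control replicate 1, 2 or 3, NFIA replicate 3 or Δpro#3 replicate 1 or 3 (0.0546 to 0.141). The call of Trdn was lost without control replicate 1, 2 or 3 or Δpro#3 replicate 1 or 3 (0.0508 to 0.112). All 3 were also lost with a pseudocount of 0.1 (0.0532 to 0.0568) and with no filter on low levels (0.0618 to 0.086), those of Cacna1s and Jph2 after median-ratio scaling (0.0765 and 0.0789), and that of Jph2 without the trend (0.0552).

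Atp2a2 had 164, 175 and 179.7 FPKM in control cells at day 7, 93.7, 93.0 and 92.0 in NFIA cells and 145, 124 and 129.5 in Δpro#3 cells. Here too the groups did not overlap, and the log2 differences from control were -0.89 (SE 0.06, adjusted p = 5.65e-07) with NFIA and -0.38 (SE 0.06, adjusted p = 0.000845) with Δpro#3. Atp2a2 was thus nearly level across constructs at day 0 and 1.86 times lower in NFIA than in control cells at day 7. At day 7, 6 of 8 myoblast and myotube markers were lower by more than 3-fold in NFIA cells, and their sum was 5534 to 6386 in control, 1221 to 1680 in NFIA and 7176 to 7430 in Δpro#3 cells. All 6 adipocyte markers were higher by more than 3-fold in NFIA and 4 of 6 in Δpro#3 cells than in control. Their part in the results was not tested.

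**Figure D3:**
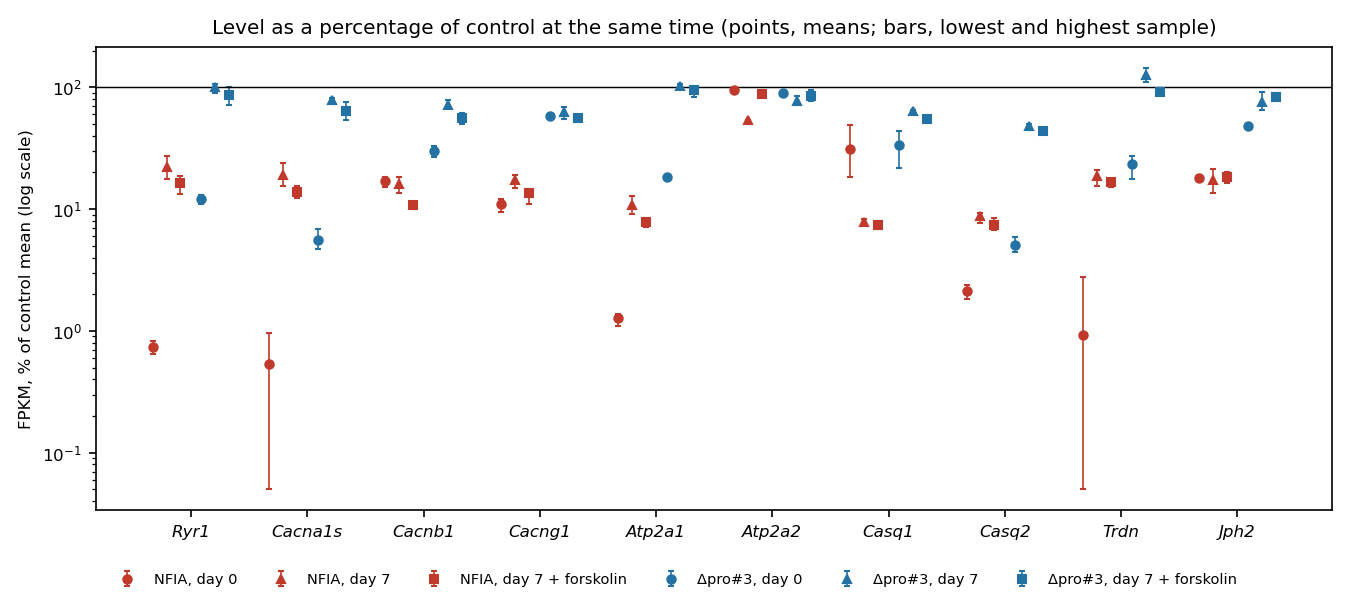
FPKM of each gene as a percentage of the control mean at the same time (y axis, log scale) in NFIA and Δpro#3 cells at day 0, day 7 and day 7 with forskolin; bars span the lowest and highest of 3 samples, and bars that end at the lowest level drawn stand for samples at 0. NFIA cells run from 0.531% to 94.5% at day 0 and from 7.84% to 53.8% at day 7, and Δpro#3 cells from 47.7% to 126% at day 7.

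Whether the rise from day 0 to day 7 differed between constructs was tested as a difference of differences. On log2(FPKM + 1), the rise was larger in NFIA than in control cells for 4 genes (Ryr1, Cacng1, Atp2a1 and Casq2; 31.1% of all genes) and smaller for 4 (Cacnb1, Atp2a2, Casq1 and Trdn; 40.1%), shares close to those of all genes. It was larger in Δpro#3 than in control cells for 7 genes (18.9% of all genes) and smaller for 1, Atp2a2 (25.9%, a call lost after median-ratio scaling with adjusted p = 0.0678), and larger in Δpro#3 than in NFIA cells for 9 (33.9%) and smaller for 1, Cacng1 (29.5%). For Atp2a2 the rise was 0.81 smaller with NFIA than in control cells (SE 0.07, adjusted p = 1.31e-08). For Casq1 it was 2.95 smaller (SE 0.13, adjusted p = 8.23e-12). For the genes near 0 in NFIA cells at day 0 the sign turned on how low values were handled. The difference of Ryr1 between Δpro#3 and NFIA was 1.29 as reported, -0.37 with 0.1 in place of 1 added to each FPKM and -1.77 in the voom fit. That of Atp2a1 was 1.06, -0.27 and -0.59, that of Cacna1s 1.71, 0.87 and -1.67, and that of Trdn 2.08, 1.49 and -1.20. Among these negative values the voom value of Ryr1 alone passed the threshold (adjusted p = 0.00237). Between NFIA and control the Trdn difference went from -1.27 to 0.40 and 3.61, the last past the threshold in the opposite direction (adjusted p = 0.000127), and the Cacnb1 call was lost in both (adjusted p = 0.417 and 0.569). That of Cacna1s, -0.29 as reported (adjusted p = 0.0705), was 2.32 and 5.48, both past the threshold in the opposite direction (adjusted p = 2.43e-08 and 2.07e-06), and without NFIA day 7 replicate 1 it was -0.45 and passed (adjusted p = 0.000159). The Casq1 difference between Δpro#3 and control, -0.03 as reported (adjusted p = 0.867), was 0.74 and 0.97 in these fits, the latter past the threshold (adjusted p = 0.0415). The other differences that did not pass were -0.17 for Jph2 between NFIA and control (adjusted p = 0.386) and 0.08 for Cacng1 between Δpro#3 and control (adjusted p = 0.642). The differences of Atp2a2 and Casq2 kept their sign throughout, as did those of Casq1 between NFIA and either of the others.

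The paralog pairs were compared as shares of their summed FPKM. The Atp2a1 share of Atp2a1 and Atp2a2 was 30.8% ± 0.37 (SD, n = 3) in control cells at day 0, 0.593% ± 0.065 in NFIA cells and 8.28% ± 0.23 in Δpro#3 cells. By day 7 it was 78.1% ± 0.59, 41.5% ± 4.1 and 82.6% ± 0.75, so that SERCA1 RNA exceeded SERCA2 RNA in control and Δpro#3 cells but not in NFIA cells. In NFIA cells the 3 samples at day 7 had 45.7%, 37.7% and 41.1%, all below the lowest control sample at 77.8%. The Casq1 share of Casq1 and Casq2 was 4.37% ± 0.77 in control cells at day 0 and 38.2% ± 9.0 in NFIA cells, where it rests on 121 fragments over 3 libraries. At day 7 it was 35.6% ± 1.1 in control, 33.4% ± 2.0 in NFIA and 42.8% ± 1.3 in Δpro#3 cells, so that NFIA and control overlapped while their calsequestrin levels differed more than 10-fold. With 3 samples against 3 the exact permutation test (2-sided) cannot go below p = 0.1, and each of these differences whose groups did not overlap had that value. The exact p of the Casq1 share between NFIA and control at day 7 was 0.2.

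**Figure D4:**
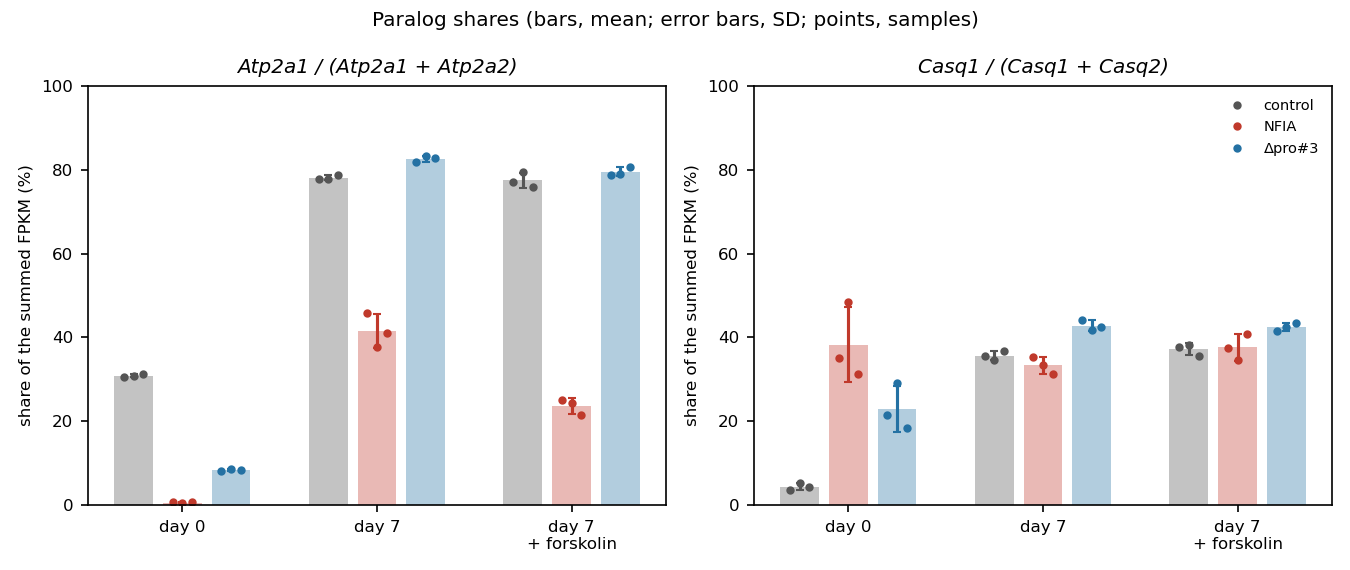
Share of Atp2a1 in Atp2a1 and Atp2a2, and of Casq1 in Casq1 and Casq2, in percent of summed FPKM (y axis), by construct and time (x axis); bars are means, error bars SD and points the 3 samples. The Atp2a1 share in NFIA cells is 0.593% at day 0, 41.5% at day 7 and 23.6% with forskolin, below control at each time, whereas the Casq1 share at day 7 is 33.4% in NFIA and 35.6% in control cells.

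Forskolin for 4 h left most of the construct differences in place. With forskolin, 9 of 10 genes were lower in NFIA than in control cells by more than 3-fold (3.77% of all 12121 genes tested) and stood at 7.34% to 18.2% of control. The exception was again Atp2a2. In Δpro#3 cells, 0 of 10 differed from control by more than 3-fold (0.685% lower and 0.866% higher among all genes) and 7 were lower at adjusted p under 0.05 (27.1%), the same number as at an unadjusted p under 0.05, while the voom fit called 0 of 10 over 3-fold. Of these 7, the calls of Jph2 (adjusted p = 0.0219) and Atp2a2 (0.0308) were lost without control replicate 1 or 2 or Δpro#3 replicate 2 or 3, with adjusted p from 0.0543 to 0.0857 and from 0.053 to 0.117, and both after median-ratio scaling (0.0616 and 0.0906). The Atp2a2 call was also lost with no filter on low levels (adjusted p = 0.0544). Ryr1 with forskolin had 24.7, 27.4 and 23.1 FPKM in control, 3.34, 4.65 and 4.30 in NFIA and 25.04, 17.8 and 21.8 in Δpro#3 cells, where control and Δpro#3 overlapped (log2 difference -0.22, 95% interval -0.50 to 0.06, adjusted p = 0.184). Against NFIA cells, 9 of 10 genes were higher in Δpro#3 cells by more than 3-fold (2.89%). Myoblast and myotube markers then summed to 5164 to 6277 FPKM in control, 981 to 1254 in NFIA and 6131 to 7110.1 in Δpro#3 cells. Adipocyte markers summed to 279 to 287, 12282 to 12922 and 523 to 859.9 in that order, with 6 of 6 called higher in NFIA than in control cells. Their part in the results was not tested.

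Atp2a2 responded to forskolin in NFIA cells. It went from 93.7, 93.0 and 92.0 FPKM without forskolin to 137, 152 and 151 with it, 158% of the level without, and the groups did not overlap. In control cells it had 162, 179.6 and 161 with forskolin after 164, 175 and 179.7 without, and in Δpro#3 cells 159, 128 and 136 after 145, 124 and 129.5, both with overlap. The log2 response was 0.65 in NFIA cells (SE 0.08, adjusted p = 2.72e-06), -0.05 in control (SE 0.08, adjusted p = 0.744) and 0.08 in Δpro#3 cells (SE 0.08, adjusted p = 0.436). The difference in response was itself past the threshold, 0.70 between NFIA and control (SE 0.11, adjusted p = 0.000155) and -0.57 between Δpro#3 and NFIA (SE 0.11, adjusted p = 0.00134). With forskolin, Atp2a2 was at 87.5% of control in NFIA cells (log2 difference -0.19, SE 0.08, adjusted p = 0.0609), a call that was gained without Δpro#3 forskolin replicate 1 or 2 (adjusted p = 0.0229 and 0.0496) and with only the groups compared (0.0321). The difference was 0.00032 after median-ratio scaling, which moved the median of all genes by 0.192 in that comparison. Such scaling moved it by 0.105 for NFIA against control at day 7, 0.15 and 0.132 for day 7 against day 0 in NFIA and Δpro#3 cells, 0.139 for forskolin in NFIA cells and -0.139 for Δpro#3 against NFIA with forskolin. The Atp2a1 share fell by 17.9 points with forskolin in NFIA cells, to 23.6% ± 1.9, and by 3.07 points in Δpro#3 cells, to 79.5% ± 1.0, both without overlap and at the smallest exact p of 0.1. In control cells it was 0.667 points lower, and the groups overlapped (exact permutation p = 0.5).

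The other coupling genes mostly fell with forskolin or did not pass the test. In NFIA cells 6 of 10 fell at adjusted p under 0.05, not far from the 41.5% of all 12245 genes that did, and Atp2a2 alone rose (13.9%). The 6 were Ryr1, Cacna1s, Cacnb1, Atp2a1, Casq2 and Jph2, with log2 responses from -0.63 (Cacna1s, SE 0.13) to -0.26 (Casq2, SE 0.09). Casq2 overlapped between the groups, and its call (adjusted p = 0.0208) was lost without NFIA day 7 replicate 2 or 3 or NFIA forskolin replicate 1 or 3, with adjusted p from 0.0698 to 0.093, after median-ratio scaling (0.268) and with only the groups compared (0.0591). The Jph2 call in NFIA cells (adjusted p = 0.00811) was lost without NFIA day 7 replicate 1 (adjusted p = 0.0562). In Δpro#3 cells 5 fell (23.9% of all genes), Ryr1, Cacna1s, Cacnb1, Trdn and Jph2. Of these, the Jph2 call was lost without Δpro#3 day 7 replicate 2 or forskolin replicate 2 or 3 (adjusted p from 0.0589 to 0.135) and the Ryr1 call without Δpro#3 day 7 replicate 1 or 2 or forskolin replicate 2 or 3 (0.0531 to 0.144) and with no filter on low levels (0.0507), and the count was 3 without Δpro#3 day 7 replicate 2 or forskolin replicate 2 or 3. In control cells 1 of 10 fell, Jph2 (13.5% of all genes), from 76.5, 68.5 and 80.1 to 52.1, 50.6 and 47.9 FPKM, with a log2 response of -0.57 (SE 0.13, adjusted p = 0.0057). That count was 2, with Cacna1s added, in the voom fit, with only the groups compared and without NFIA day 7 replicate 1 or Δpro#3 forskolin replicate 1.

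Beside Atp2a2 (9.16% of all genes higher), the forskolin response differed between NFIA and control for Cacnb1, which fell further in NFIA cells by 0.48 (SE 0.14, adjusted p = 0.0163, 21.5% of all genes lower). This count of 2 was 4 without NFIA day 7 replicate 2, and 3 without control forskolin replicate 3 or NFIA forskolin replicate 2. Between Δpro#3 and NFIA 1 gene passed, Atp2a2 (5.88% of all genes lower), and the count was 2 without Δpro#3 day 7 replicate 2. Between Δpro#3 and control 0 of 10 passed in limma (2.47% of all genes higher and 2.5% lower). At an unadjusted p under 0.05 there were 2, Cacnb1 and Trdn, and in the voom fit 1. The shares of all genes at these last 2 limits were not worked out, so these counts cannot be set against them. The limma count was 1 without NFIA day 7 replicate 1 or Δpro#3 day 7 replicate 2.

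**Figure D5:**
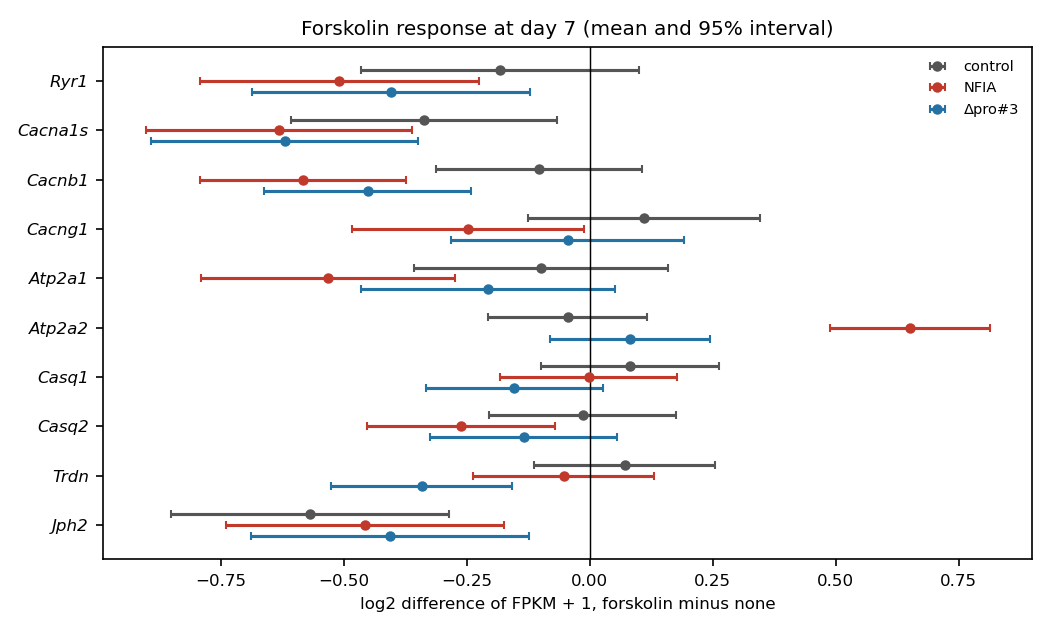
Response to forskolin at day 7, as the log2 difference of FPKM + 1 with and without it (x axis, points with 95% intervals), for each gene (y axis) in control, NFIA and Δpro#3 cells. Atp2a2 in NFIA cells, at 0.65, is the only point whose interval lies above 0.

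Genes of the wider pathway, 72 genes in lists for voltage sensor partners, release channel partners, triad and lumen proteins, pumps and pump regulators, store-operated entry and membrane excitability, moved less uniformly. Of 49 tested at day 0, 9 were lower and 1 higher in NFIA than in control cells by more than 3-fold (2.78% and 2.46% of all genes), with a median log2 difference of -0.28. Among the largest falls were Chrna1, the acetylcholine receptor alpha subunit, at -3.60 (SE 0.03) and Jsrp1, a junctional reticulum protein, at -3.30 (SE 0.03), and the rise was Camk2b, a calmodulin kinase subunit, at 1.80 (SE 0.07). At day 7, 11 of 54 tested were lower and 3 higher in NFIA cells (3.3% and 4.87% of all genes), with a median of -0.71. The falls were led by the calcium buffer Pvalb at -3.24 (SE 0.17), the luminal protein Hrc at -3.12 (SE 0.15) and the caveolin Cav3 at -3.06 (SE 0.09). By list, 7 of the 15 triad and lumen genes tested were lower, 1 of 15 release channel partners, 1 of 6 voltage sensor partners, 1 of 7 pumps and regulators, 1 of 5 membrane excitability genes and 0 of 6 store-operated entry genes.

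All 3 pathway genes that were higher with NFIA at day 7 belong to calcium pumps and their regulators: Atp2a3 (SERCA3), Sln (sarcolipin, a small inhibitor of SERCA) and Atp2b4 (a plasma membrane pump, 1.59, SE 0.06). Sln had 0.252, 0.457 and 1.15 FPKM in control, 4.82, 13.4 and 9.09 in NFIA and 100.8, 75.6 and 62.3 in Δpro#3 cells. It was thus highest in Δpro#3 cells, with no overlap between the 3 groups and a log2 difference from control of 5.65 (SE 0.31, adjusted p = 1.01e-06), and 2.59 (SE 0.31, adjusted p = 3.22e-05) for NFIA. Atp2a3 had 0.969, 0.916 and 0.759 in control, 15.5, 13.9 and 13.1 in NFIA and 4.76, 7.45 and 7.31 in Δpro#3 cells, the reverse order of the 2 constructs, with log2 differences of 3.01 (SE 0.14) and 1.98 (SE 0.14). In Δpro#3 cells 3 pathway genes, Sln and Atp2a3 among them, were higher than control and 0 were lower (0.933% and 0.503% of all genes). Against NFIA cells 13 of 54 pathway genes tested were higher in Δpro#3 cells and 0 lower (2.6% and 3.7% of all genes), led by Pvalb at 4.18 (SE 0.17), Sln at 3.06 (SE 0.31) and Hrc at 2.57 (SE 0.15). In control cells, 15 of 53 pathway genes rose from day 0 to day 7 and 3 fell (3.65% and 3.05% of all genes), among them Cav3, which rose by 4.88 (SE 0.09), Pvalb by 4.87 (SE 0.14) and Hrc by 3.54 (SE 0.13).

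Over the 9 group means, the pattern of Ryr1 was most like those of Ttn, Npnt and Hfe2 (Pearson r of 0.999 for each, on log2(FPKM + 1), among 11572 genes). That of Atp2a2 was most like those of Rrp9 (0.991), Rheb (0.99) and Mkln1 (0.989). Among the members, r with Ryr1 was 0.902 to 0.989 for 8 genes and 0.827 for Atp2a2, and the lowest of all pairs was that of Atp2a2 and Jph2 at 0.604. The 9 points share constructs and times, so these values describe order only.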

How the data were processed

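RNA from 27 C2C12 samples (3 in each of 9 groups) was sequenced as stranded poly(A) libraries. The authors aligned reads with STAR 2.5.3a to mm9 and deposited FPKM per gene from uniquely mapped, matched-strand reads, together with each gene's length. Groups came from the sample titles. FPKM times length fell on whole multiples of 1 step per sample for at least 99.96% of values (tolerance 0.02), so fragment counts were worked back from it. Of the 24825 gene rows, 2 symbols occur more than 1 time and 26 are date-like, and none of the genes named is among them. The members and lists were chosen with earlier results of these data known. The 10 members are all named, and pathway genes are named for the 3 largest rises and falls among those called in a comparison, less some that are not reported here. For 2 listed genes the RefSeq synonym was used (Mrln, Mymk).

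Differences were tested with limma 3.58.1 (R 4.3.3, trend) on log2(FPKM + 1) over genes whose FPKM averaged at least 0.5 in the fit, with Benjamini-Hochberg adjustment. Constructs at a time were fitted on its 9 samples, day 7 against day 0 and forskolin against none on 18. Called means adjusted p under 0.05 and, between constructs or days, over 3-fold. Shares of all genes were worked out for limma at adjusted p only, not for unadjusted p or for the alternatives. Shares were compared with exact permutation tests (scipy 1.17.1). Nothing in the labels says that replicates are separate cultures, so p-values measure the spread between these samples. Alternatives were a pseudocount of 0.1, median-ratio scaling, no filter or an average of 5 FPKM, only the groups compared, no trend, a replicate block, limma-voom on the fragments, and leaving out each sample. The fits were tested on simulated data. Intervals on fragments cover counting error only.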

Additional observations from a re-analysis of the deposited data

Results flagged for a closer look

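Differences of differences past the threshold were set aside for a closer look. Groups of 3 samples are too small for a test of single outlying samples. All values are log2 differences of FPKM + 1 from limma with adjusted p under 0.05, and for genes near 0 in NFIA cells at day 0 they depend on the added constant.

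The rise from day 0 to day 7 in NFIA cells minus that in control cells was 0.75 for Ryr1, 0.54 for Cacng1, 1.22 for Atp2a1 and 0.52 for Casq2, and -0.50 for Cacnb1, -0.81 for Atp2a2, -2.95 for Casq1 and -1.27 for Trdn. The rise in Δpro#3 minus that in control cells was 2.04 for Ryr1, 1.42 for Cacna1s, 0.98 for Cacnb1, 2.28 for Atp2a1, 2.41 for Casq2, 0.81 for Trdn and 0.59 for Jph2, and -0.23 for Atp2a2. The rise in Δpro#3 minus that in NFIA cells was 1.29 for Ryr1, 1.71 for Cacna1s, 1.48 for Cacnb1, 1.06 for Atp2a1, 0.58 for Atp2a2, 2.92 for Casq1, 1.88 for Casq2, 2.08 for Trdn and 0.76 for Jph2, and -0.46 for Cacng1.

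The response to forskolin in NFIA minus that in control cells was 0.70 for Atp2a2 and -0.48 for Cacnb1. In Δpro#3 minus NFIA cells it was -0.57 for Atp2a2. No cause was tested for any of these.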

How the results depend on the processing

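Of 529 repeats of the counts and paralog shares under the alternatives, 505 stayed within 1.5 times the count or 1 SD of the share and 24 moved. Samples with the same replicate number did not vary together (mean correlation of their deviations 0.0139 at day 0, -0.0314 at day 7 and -0.00195 with forskolin), so the number was not taken as a pairing. With a replicate block, the counts were the same in all 21 comparisons (7, 9 and 9 members lower with NFIA at day 0, day 7 and with forskolin), and calls of 4 of 165 single differences compared (those called or given in the text) were lost: Atp2a2 between Δpro#3 and NFIA at day 0 (adjusted p = 0.0531), Trdn (0.0555) and Jph2 (0.0756) between Δpro#3 and control at day 7, and Atp2a2 between Δpro#3 and control with forskolin (0.0534).

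The count of members called moved as follows. With a pseudocount of 0.1, the day 7 rise differed between NFIA and control for 7 members (5 higher, 2 lower) instead of 8 (4 and 4), and with voom for 8 (6 and 2). With median-ratio scaling, the rise differed between Δpro#3 and control for 7 (7 and 0) instead of 8. With a mean FPKM of 5 or more, 4 members were lower with NFIA and 2 with Δpro#3 at day 0 instead of 7 and 4, because fewer members were tested. With only the groups compared, 2 instead of 1 fell with forskolin in control cells. With voom, 4 instead of 2 were higher in Δpro#3 than in NFIA cells at day 0, 7 (5 higher, 2 lower) instead of 10 differed in rise between them, 2 fell with forskolin in control cells, and 1 instead of 0 differed in forskolin response between Δpro#3 and control. Leaving out 1 library gave 1 to 2 members for forskolin in control cells, 3 to 5 in Δpro#3 cells, 6 to 8 in NFIA cells, and for the differences in response 2 to 4 (NFIA and control), 0 to 1 (Δpro#3 and control) and 1 to 2 (Δpro#3 and NFIA). Construct counts at a time did not move when 1 library was left out. As shares of fragments instead of FPKM, which by construction weigh the longer Atp2a2 more, the Atp2a1 share differed from control by -20.8 points for NFIA and -16.0 for Δpro#3 at day 0, and by 5.86 for Δpro#3 at day 7, instead of -30.2, -22.6 and 4.50.

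Signs changed for 14 of these 165. With a pseudocount of 0.1 the difference in rise was 0.40 for Trdn and 2.32 for Cacna1s (NFIA minus control), 0.74 for Casq1 (Δpro#3 minus control), and -0.37 for Ryr1 and -0.27 for Atp2a1 (Δpro#3 minus NFIA). With voom it was 3.61 for Trdn and 5.48 for Cacna1s (NFIA minus control), 0.97 for Casq1 (Δpro#3 minus control), and -1.77 for Ryr1, -1.67 for Cacna1s, -0.59 for Atp2a1 and -1.20 for Trdn (Δpro#3 minus NFIA). With median-ratio scaling, Atp2a2 differed by 0.00032 between NFIA and control with forskolin and by 0.0099 with forskolin in control cells, and the Casq1 rise by 0.0104 between Δpro#3 and control. Without 1 library the following, all far from the threshold, crossed 0: Ryr1 (-0.0329 to 0.0754) and Atp2a1 (-0.0171 to 0.0917) between Δpro#3 and control at day 7, Atp2a1 with forskolin (-0.162 to 0.0569), Casq1 between Δpro#3 and NFIA at day 0 (-0.0404 to 0.131), the Casq1 rise between Δpro#3 and control (-0.102 to 0.0807), and the Atp2a2 forskolin response in Δpro#3 cells (-0.0074 to 0.146). Beyond what each alternative's construction shows, the cause was not tested. Depth limits the values of Trdn and Cacna1s in NFIA cells at day 0, which rest on 2 and 5 fragments.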
